A study of Mus musculus with 8 samples.

Results

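The genes described here are 10 genes that glucocorticoid is known to induce, led by Fkbp5, in the kidneys of mice given the small molecule BRD4780 or vehicle. They were taken from the count table by symbol (Fkbp5, Tsc22d3, Rgcc, Nfkbia, Errfi1, Mertk, Zbtb16, Cebpd, Ddit4 and Bcl6), and each of the 10 symbols matched 1 of 21759 genes. The genes were selected on their log2 fold changes between BRD4780 and vehicle in these libraries, so their values in that comparison are given as a description. How many of them a fit over all genes called is given as a count only, and supports nothing. All 8 mice were males of 8 months carrying a knock-in that models MUC1 kidney disease, in which a frameshifted mucin-1 protein accumulates in tubule cells. In the BRD4780 group 4 mice received the compound, whose samples are titled AGN50, at 50 mg/kg every day for 7 days. In the vehicle group 4 mice received saline on the same schedule. The vehicle mice carry the same knock-in, and no mouse without it is used here. How the knock-in allele is driven, the hour at which the kidneys were taken and the hormone levels of the animals are not given in the labels.

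Glucocorticoid, corticosterone in the mouse, binds the glucocorticoid receptor, which is held in the cytoplasm by HSP90 and its co-chaperones and moves to the nucleus once bound. There it binds glucocorticoid response elements, often far from the gene, and switches on a set of genes of which many act as brakes. FKBP51, the product of Fkbp5, lowers the affinity of the receptor for its hormone, IkBa (from Nfkbia) and GILZ (from Tsc22d3) restrain NF-kB, MIG6 (from Errfi1) restrains the EGF receptor, and REDD1 (from Ddit4) restrains mTORC1. Several of these genes also answer to other signals, Ddit4 to hypoxia and ATF4, Nfkbia and Cebpd to inflammatory cytokines.

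RNA was prepared from sagittal kidney tissue, and poly(A) RNA was sequenced with a stranded kit. Library totals ran from 5.74 to 28.2 M expected counts with BRD4780 and from 16.6 to 28.5 M with vehicle, the shallowest being BRD4780 replicate 4. Summed markers of the proximal tubule stood at 13936 to 19545 counts per M (CPM) with BRD4780 and at 16747 to 18051 CPM with vehicle. A pair of treated libraries stand apart. BRD4780 replicate 3 was the lowest treated library in 78.3% of 304 other genes called higher, against 36.1% of all 13474 genes tested, and 3184 genes were called without it, against 394 with it. BRD4780 replicate 4 had the smallest total and was the highest treated library in 8 of the 10 genes, against 25.4% of all genes tested and 47.0% of the 304 other genes called higher. Counts of calls in the gene lists, and some member values and orders, are also given without either library.

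The promoter windows of Fkbp5, Tsc22d3, Nfkbia and Bcl6 are shown, the lead gene and 3 genes whose windows held a motif of a factor that acts on these genes. RefSeq windows on GRCm38.p6, from 250 bases before to 50 bases after an annotated start, were found for 8 of the 10 genes, 12 windows in all. There was none for Zbtb16 and Cebpd. Capitals mark AGAACA, the repeat unit of the glucocorticoid response element, a binding sequence of NF-kB, or CACGTG, the E-box. They also mark TATAAA, the letters of the TATA box. All are marked on either strand and at any place in the window.
Fkbp5 (chr17:28486100-28486399, minus strand): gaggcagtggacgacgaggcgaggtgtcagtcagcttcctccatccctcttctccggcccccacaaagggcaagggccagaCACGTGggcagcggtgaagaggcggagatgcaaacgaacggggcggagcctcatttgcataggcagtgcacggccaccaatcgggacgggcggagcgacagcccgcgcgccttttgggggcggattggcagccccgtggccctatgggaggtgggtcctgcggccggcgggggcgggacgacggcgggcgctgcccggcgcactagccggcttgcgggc
Tsc22d3 (chrX:140600473-140600772, minus strand): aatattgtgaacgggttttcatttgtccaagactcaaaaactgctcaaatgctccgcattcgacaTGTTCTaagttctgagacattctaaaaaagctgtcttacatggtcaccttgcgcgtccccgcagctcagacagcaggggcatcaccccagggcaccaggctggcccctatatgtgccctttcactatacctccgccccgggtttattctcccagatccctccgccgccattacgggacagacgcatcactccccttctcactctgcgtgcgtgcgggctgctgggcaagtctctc
Nfkbia (chr12:55492598-55492897, minus strand): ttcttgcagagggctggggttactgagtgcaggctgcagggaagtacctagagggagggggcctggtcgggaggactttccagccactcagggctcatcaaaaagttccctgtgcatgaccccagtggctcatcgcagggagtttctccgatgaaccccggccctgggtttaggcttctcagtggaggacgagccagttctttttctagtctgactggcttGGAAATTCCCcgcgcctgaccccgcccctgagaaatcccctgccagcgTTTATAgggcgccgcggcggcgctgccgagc
Bcl6 (chr16:23981234-23981533, minus strand): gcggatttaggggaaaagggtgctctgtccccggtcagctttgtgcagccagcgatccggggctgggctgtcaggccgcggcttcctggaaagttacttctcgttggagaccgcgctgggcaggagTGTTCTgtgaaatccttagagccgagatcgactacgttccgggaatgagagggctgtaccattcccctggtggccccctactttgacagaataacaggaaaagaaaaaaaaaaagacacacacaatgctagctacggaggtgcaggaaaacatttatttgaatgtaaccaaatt
The complete palindrome, AGAACA followed after 3 free bases by TGTTCT, was in 0 of the 12 windows and in 0.00913% of all 32851 windows. The repeat unit AGAACA was in 2 of the 12, against 19.0% of all windows. These were the Tsc22d3 window above, 1 of 3 of that gene, with the unit beginning 185 bases before the start, and the Bcl6 window above, 1 of 2, with it beginning 124 bases before the start. The NF-kB sequence (the longer run of capitals in the Nfkbia window) was in the Nfkbia window only, beginning 29 bases before the start, and in 0.0883% of all windows. NF-kB is known to induce its own inhibitor through this promoter. CACGTG was in 1 window each of Fkbp5 and Bcl6 (7.15% of all windows), and TATAAA in 1 each of Nfkbia and Errfi1 (13.6% of all windows). In Errfi1 it lay on the gene's strand, beginning 28 bases before the start. In Nfkbia it lay on the opposite strand, beginning 19 bases after the start, so not before it. The share of members' windows with the repeat unit lay near that of all windows, and a window of this length does not reach the distant elements through which the receptor is known to act on genes such as Fkbp5.

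Fkbp5 (chromosome 17, 28399094 to 28517527, minus strand, GRCm38) stood at 289, 250.2, 232 and 318 CPM in BRD4780 replicates 1 to 4, against 102, 96.9, 113 and 132 CPM in vehicle replicates 1 to 4. Every treated library lay above every vehicle library, and the lowest treated library, replicate 3, still exceeded the highest vehicle library, replicate 4. The means were 272 ± 38.8 CPM with BRD4780 and 111 ± 15.8 CPM with vehicle (SD, n = 4 per group), a log2 fold change of 1.30 ± 0.13 (SE). CPM here are counts per M of TMM-scaled totals, and log2 fold changes are BRD4780 over vehicle from edgeR's fit over all genes. Tsc22d3 (chromosome X, 140539528 to 140600659, minus strand), which encodes the anti-inflammatory leucine zipper protein GILZ, had 178, 194, 164 and 239 CPM in the BRD4780 libraries, against 64.3, 78.8, 119 and 97.1 CPM in the vehicle libraries. The groups were again apart, with more spread among vehicle mice than for Fkbp5. Its log2 fold change was 1.11 ± 0.18 (SE), and 0.99 ± 0.18 (SE) without BRD4780 replicate 4.

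**Figure D1:**
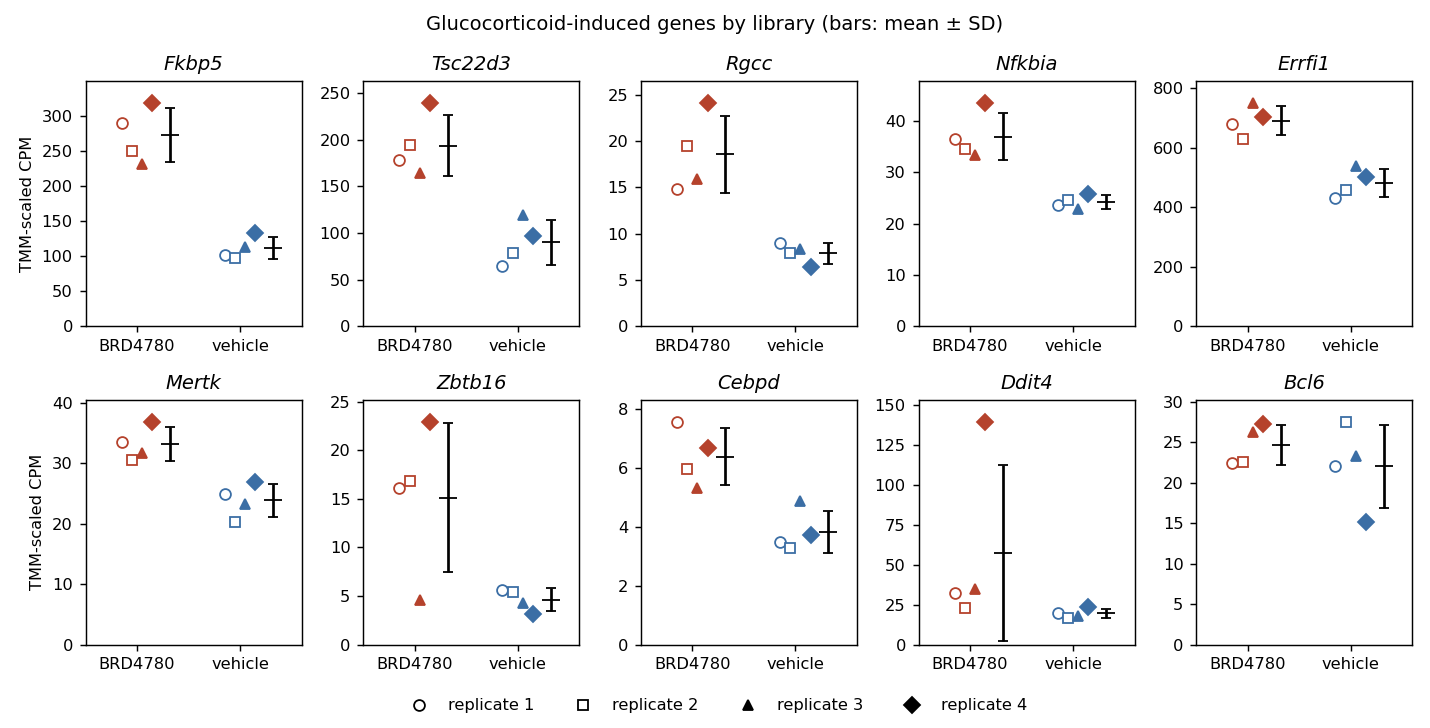
Level of each of the 10 genes in every library, in TMM-scaled CPM on linear axes that start at 0, with BRD4780 on the left and vehicle on the right of each panel. Symbols give the replicate, and bars the mean ± SD of 4 libraries. In 7 genes the groups do not overlap, while Zbtb16 in BRD4780 replicate 3 lies at 4.58 CPM, among the vehicle libraries, Ddit4 reaches 139 CPM in BRD4780 replicate 4, and the groups of Bcl6 cover each other.

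Rgcc (chromosome 14, 79288756 to 79301645, minus strand), the response gene to complement 32 and a regulator of the cell cycle, had 14.9, 19.5, 15.9 and 24.1 CPM with BRD4780, against 9.01, 7.88, 8.28 and 6.34 CPM with vehicle. Its fold change resembled that of Fkbp5 at a level far below it in CPM, with a log2 fold change of 1.22 ± 0.17 (SE). Without BRD4780 replicate 4 it was 1.09 ± 0.15 (SE). Cebpd (chromosome 16, 15887286 to 15891031, plus strand), a transcription factor gene of the C/EBP family that also serves the acute phase response, had 7.57, 5.97, 5.33 and 6.69 CPM with BRD4780, against 3.48, 3.28, 4.87 and 3.71 CPM with vehicle. It was the gene counted least, with as few as 40 reads in a library, and its groups did not overlap. Its log2 fold change was 0.74 ± 0.18 (SE), and 0.41 ± 0.22 (SE) after every library was thinned to the smallest total. Exons of Spidr on the opposite strand share 562 bases with Cebpd, and whether strand was used in counting is not given.

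Nfkbia, Errfi1 and Mertk had smaller fold changes. Nfkbia (chromosome 12, 55489410 to 55492647, minus strand) had 36.5, 34.6, 33.4 and 43.5 CPM with BRD4780, against 23.5, 24.6, 22.8 and 25.9 CPM with vehicle. Vehicle mice were close together, with an SD of 1.32 CPM, and the log2 fold change was 0.60 ± 0.10 (SE). Errfi1 (chromosome 4, 150853919 to 150868892, plus strand), whose product binds and inhibits EGF receptors, was the most abundant of the 10. It had 682, 631, 749.7 and 702 CPM with BRD4780, against 431, 458, 539 and 500.4 CPM with vehicle, a log2 fold change of 0.52 ± 0.10 (SE). Mertk (chromosome 2, 128698956 to 128802894, plus strand), a receptor tyrosine kinase with which phagocytes take up dying cells, had 33.5, 30.6, 31.6 and 36.8 CPM with BRD4780, against 24.8, 20.3, 23.2 and 26.9 CPM with vehicle. The groups of Errfi1 and of Mertk did not overlap, and the log2 fold change of Mertk was 0.47 ± 0.10 (SE). Summed macrophage markers ranged from 101 to 165 CPM with BRD4780 and from 128 to 257 CPM with vehicle, with overlapping groups. Since the tissue is bulk kidney, fewer cells of a type and less RNA per cell cannot be told apart, here and below.

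In 3 genes the groups overlapped, each in its own way. Zbtb16 (chromosome 9, 48654297 to 48836222, minus strand), the gene of the transcriptional repressor PLZF, had 16.1, 16.8, 4.58 and 22.9 CPM with BRD4780, against 5.64, 5.41, 4.32 and 3.15 CPM with vehicle. BRD4780 replicates 1, 2 and 4 lay far above all vehicle libraries and replicate 3 among them. The log2 fold change was 1.66 ± 0.40 (SE), 1.97 ± 0.21 (SE) without BRD4780 replicate 3 and 1.43 ± 0.40 (SE) without BRD4780 replicate 4. Ddit4 (chromosome 10, 59949669 to 59951834, minus strand) had 32.2, 22.8, 34.8 and 139 CPM with BRD4780, against 19.8, 16.5, 18.0 and 23.4 CPM with vehicle. Only BRD4780 replicate 2 fell within the vehicle range, and replicate 4 stood alone at 139 CPM. The log2 fold change of 1.50 ± 0.49 (SE) was 0.62 ± 0.16 (SE) without BRD4780 replicate 4. Bcl6 (chromosome 16, 23965052 to 23988852, minus strand), a repressor gene that opposes STAT factors, had 22.5, 22.5, 26.3 and 27.3 CPM with BRD4780, against 22.1, 27.5, 23.3 and 15.1 CPM with vehicle. Its log2 fold change of 0.15 ± 0.16 (SE) was smaller than its error, and 0.01 without vehicle replicate 4, the lowest library.

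As a group, 10 of 10 genes had a positive log2 fold change, with a median of 0.92 and a range of 0.15 to 1.66, beside a median of 0.01 and 51.6% positive over all 13474 genes tested. All 10 passed the filter on low counts. Every BRD4780 library lay above every vehicle library in 7 of the 10, against 7.44% of all genes tested, and below in 0 of the 10, against 5.16%. At an adjusted p under 0.05, 6 of the 10 were called higher and 0 lower, against 2.3% and 0.623% of all genes (2.92% in either direction). These were Fkbp5, Tsc22d3, Rgcc, Nfkbia, Errfi1 and Mertk, and since the choice used this contrast nothing is read from the count. It was 2, 3, 9 and 3 without BRD4780 replicates 1, 2, 3 and 4, and 3, 1, 3 and 6 without vehicle replicates 1, 2, 3 and 4. Calls over all genes in either direction numbered 66, 66, 3184 and 83, and 64, 31, 87 and 233, in those fits. DESeq2 called 8 higher, beside 850 higher and 505 lower of all 17280 genes it fitted.

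The 10 genes shared part of their pattern among the treated mice and differed in the size of their spread. Their mean deviation from the vehicle mean was 0.85, 0.77, 0.62 and 1.29 on the log2 scale in BRD4780 replicates 1 to 4, and -0.02, -0.04, 0.09 and -0.03 in vehicle replicates 1 to 4. BRD4780 replicate 4 was the highest treated library in all but Errfi1 and Cebpd. BRD4780 replicate 3 was the lowest in 5 genes (Fkbp5, Tsc22d3, Nfkbia, Zbtb16 and Cebpd) and the highest in Errfi1. Spread among treated mice was widest for Ddit4 and Zbtb16, with SDs of 1.15 and 1.02 on the log2 scale, against 0.21 and 0.38 in vehicle mice. In the other 8 genes the SD lay between 0.10 and 0.31 in treated mice and between 0.08 and 0.38 in vehicle mice. Among vehicle mice the highest library was replicate 4 in 4 genes, replicate 3 in 3, replicate 1 in 2 and replicate 2 in 1, so no vehicle library led throughout. Whether the depth of BRD4780 replicate 4 had a part in its high values was not tested. Thinning to equal totals cannot decide it, since this library has the smallest total and is left unchanged. After thinning the median log2 fold change of the 10 genes was 0.84.

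**Figure D2:**
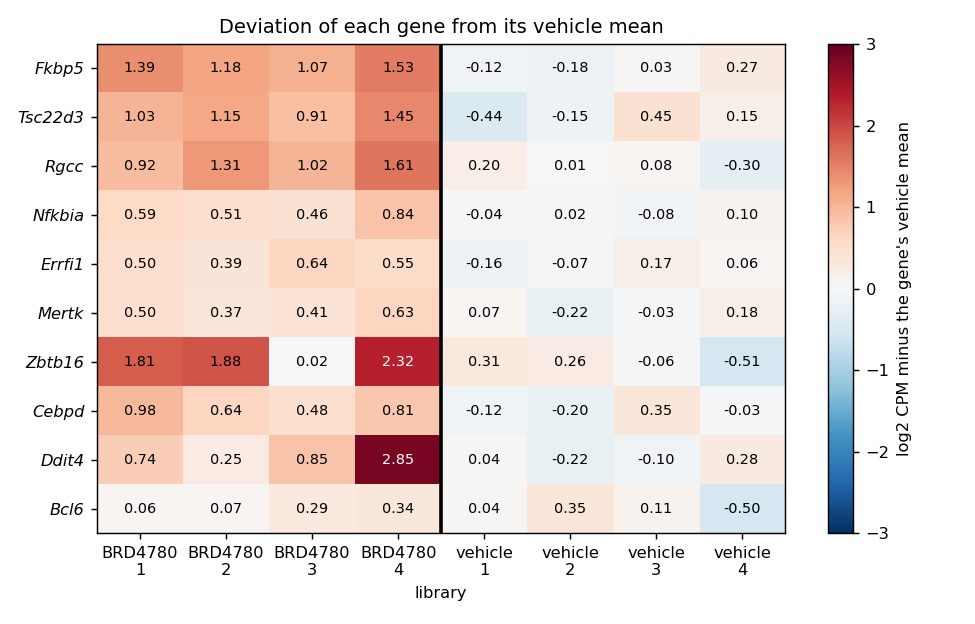
Each gene's log2 CPM in each library minus that gene's mean over the vehicle libraries, with BRD4780 libraries left of the line and vehicle libraries right of it. Red is above and blue below the vehicle mean; Ddit4 reaches 2.85 and Zbtb16 2.32 in BRD4780 replicate 4, while Zbtb16 is at 0.02 in BRD4780 replicate 3.

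Levels between genes were compared as CPM per kilobase of merged GENCODE M21 exons. Errfi1 stood far above the rest, at 193 CPM per kilobase with BRD4780 (range 176 to 209) and 135 with vehicle (range 120.2 to 151). Tsc22d3 came next, at 44.7 with BRD4780 (range 37.8 to 55.2) and 20.7 with vehicle (range 14.8 to 27.5). In vehicle mice Nfkbia (15.0), Fkbp5 (11.7), Ddit4 (11.1) and Rgcc (8.58) followed, where the ranges of Tsc22d3 and Nfkbia, of Fkbp5 and Ddit4, and of Ddit4 and Rgcc overlapped. Mertk (5.49), Bcl6 (3.28), Cebpd (1.02) and Zbtb16 (0.876) closed the order in vehicle mice, and only the ranges of Cebpd and Zbtb16 overlapped among them. With BRD4780 the order changed in the middle and at the end. Ddit4 (32.7, range 13.0 to 79.4) and Fkbp5 (28.8, range 24.5 to 33.6) stood before Nfkbia (23.0) and Rgcc (20.2), and Zbtb16 (2.86) before Cebpd (1.71), all with overlapping ranges between neighbours. The place of Ddit4 rested on BRD4780 replicate 4: without that library its mean was 17.1 CPM per kilobase, below Fkbp5 (27.2), Nfkbia (21.6) and Rgcc (18.2).

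**Figure D3:**
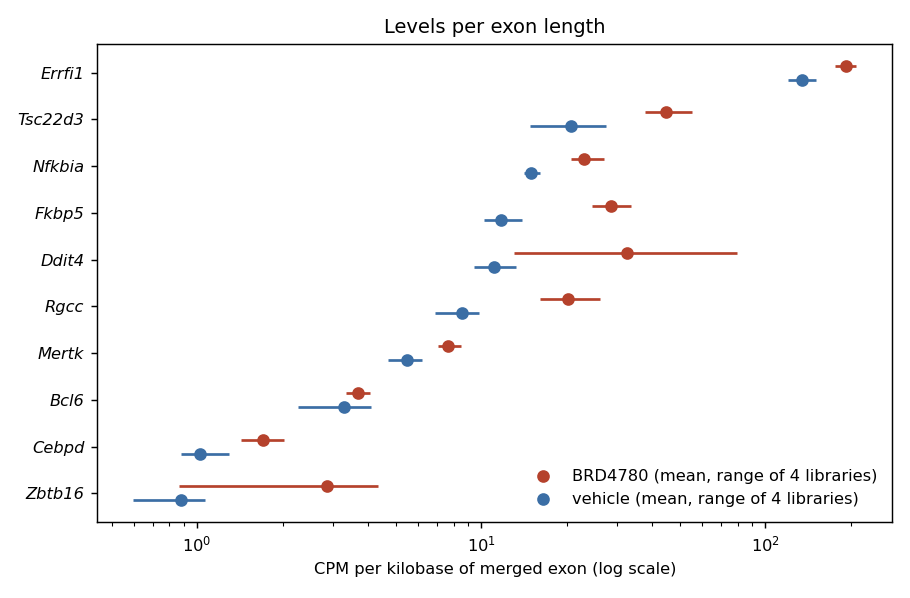
Mean level of each gene per kilobase of merged exon, on a log axis, ordered by the vehicle mean, with a line from the lowest to the highest of 4 libraries for BRD4780 (upper point) and vehicle (lower point). Errfi1 lies apart from all other genes in both groups, at 193 with BRD4780 and 135 with vehicle.

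A further 30 genes that glucocorticoid is known to induce in rodent or human tissues were looked at beside the 10. Hif3a, Map3k6 and Cdkn1c, whose increases were known from earlier results of these data, were left out. The list itself was also chosen with earlier results known, so its counts are a description and no independent support. Of the 29 tested, 5 rose with BRD4780, against 2.3% of all genes, and 0 fell by edgeR's test. At an unadjusted p under 0.05 there were 13 higher and 2 lower. The share of all genes at that cutoff was not counted, so nothing is read from such counts here and below. DESeq2 called 10 higher and 1 lower, against 850 and 505 of all 17280 genes it fitted. The median log2 fold change was 0.43, with 23 of 29 positive. Since the count is small its genes are named, Per1 and Arrdc2 having been chosen after their values were seen. Angptl4, a secreted inhibitor of lipoprotein lipase, had 295, 298, 245 and 233 CPM with BRD4780, against 84.6, 119, 112 and 128 CPM with vehicle (log2 fold change 1.28 ± 0.14 SE, adjusted p = 0.00249). The groups lay far apart, and the call held in all 13 alternatives. Per1, a circadian clock gene that glucocorticoid also drives, averaged 89.0 ± 25.7 CPM with BRD4780 and 36.5 ± 13.1 CPM with vehicle (SD, n = 4 per group; edgeR adjusted p = 0.0345). Arrdc2, an arrestin-domain gene, averaged 45.4 ± 23.5 CPM with BRD4780 and 17.0 ± 0.34 CPM with vehicle (SD, n = 4 per group; edgeR adjusted p = 0.0452).

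Of the metabolic genes in this list, Pck1, the entry enzyme of gluconeogenesis, averaged 4043 ± 451 CPM with BRD4780 and 2659 ± 261 CPM with vehicle (SD, n = 4 per group; edgeR adjusted p = 0.0315). Foxo1, a transcription factor gene that drives gluconeogenesis, rose 1.37-fold (edgeR adjusted p = 0.0209). Sgk1, a kinase gene that activates the epithelial sodium channel, did not pass, at 109, 168, 95.1 and 165 CPM with BRD4780 against 51.8, 72.4, 94.7 and 44.2 CPM with vehicle (edgeR adjusted p = 0.0576). Nor did Zfp36, which destabilizes inflammatory mRNAs (log2 fold change 0.70 ± 0.17 SE), Dusp1, a MAP kinase phosphatase gene (0.43 ± 0.13 SE), or Scnn1a, a subunit gene of that channel (0.26 ± 0.08 SE), although their groups did not overlap. Klf9 and Klf15, transcription factor genes with well-known response elements, had log2 fold changes of -0.18 ± 0.22 and 0.05 ± 0.13 (SE). Irs2 was at -0.67 ± 0.22 (SE) and did not pass. Its groups did not overlap either, in the other direction, at 5.37 to 7.03 CPM with BRD4780 and 7.63 to 14.7 CPM with vehicle. Tat, a liver enzyme gene, was not tested for lack of reads. The number called higher in the list was 1, 1, 14 and 1 without BRD4780 replicates 1, 2, 3 and 4, and 1, 1, 3 and 2 without vehicle replicates 1, 2, 3 and 4. Calls over all genes in those fits are given above, and 1647 of 13558 were higher without BRD4780 replicate 3. Angptl4 was the gene left where the count was 1. The calls of Pck1 and Arrdc2 held only without BRD4780 replicate 3 (adjusted p up to 0.11 and 0.132 without another library), and that of Per1 only without BRD4780 replicate 3 or vehicle replicate 3 (up to 0.112). That of Foxo1 was lost without BRD4780 replicates 1, 2 or 4 or vehicle replicates 1 or 2 (up to 0.0788).

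**Figure D4:**
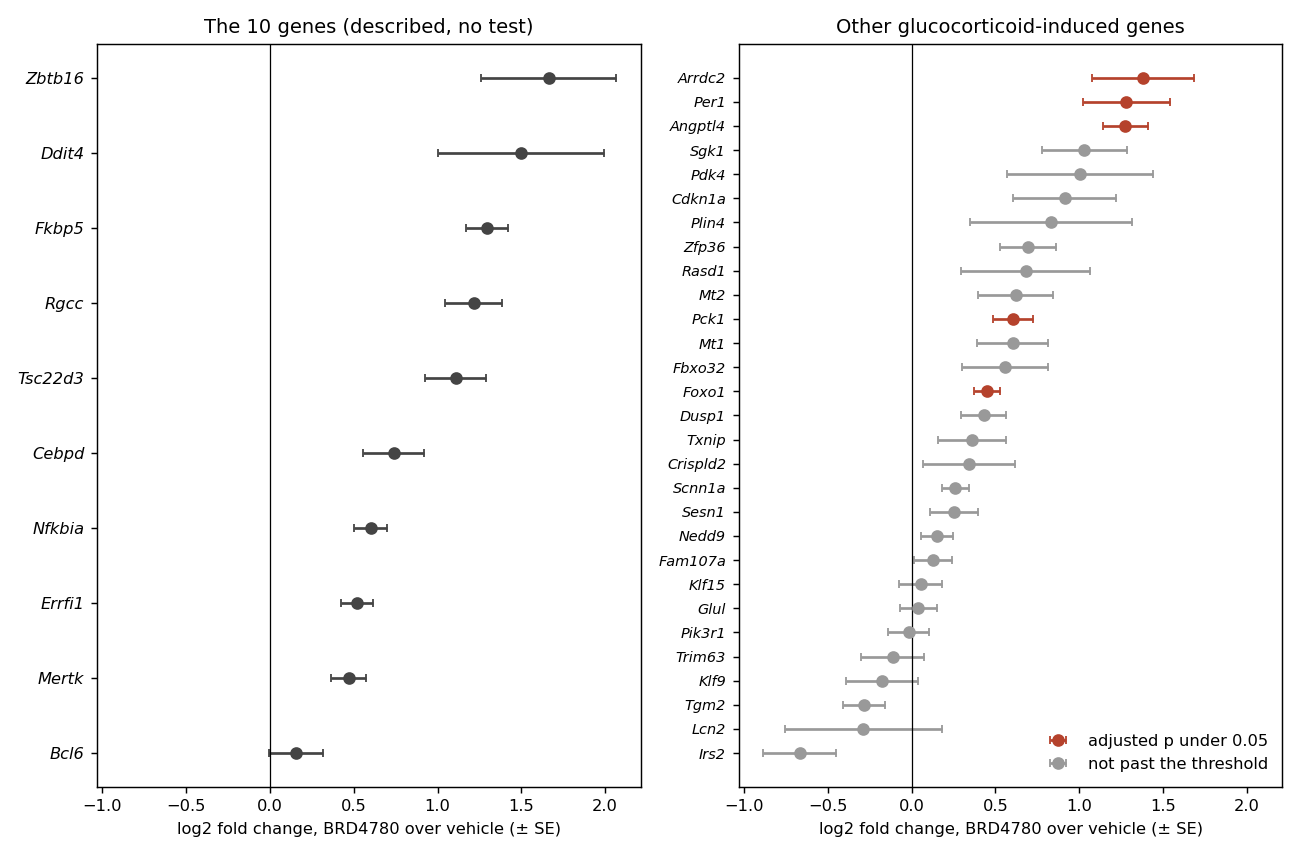
Log2 fold change, BRD4780 over vehicle, with its standard error, for the 10 genes (left, ranked) and for 29 other genes that glucocorticoid is known to induce (right, ranked). In the right panel red points passed edgeR's test at an adjusted p under 0.05 (5 genes) and grey points did not; Zbtb16 leads the left panel at 1.66 and Bcl6 closes it at 0.15.

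Genes of the receptor's own machinery lay on the other side. Of 16 genes of the receptors, their chaperone complex, coregulators and the enzymes that interconvert active and inactive hormone, 0 were higher and 3 lower, against 2.3% and 0.623% of all genes, and 16 of 16 had a negative log2 fold change (median -0.20). At an unadjusted p under 0.05 there were 0 higher and 8 lower. DESeq2 called 0 higher and 7 lower, against 850 and 505 of all 17280 genes it fitted. Fkbp4 encodes FKBP52, the co-chaperone that favours hormone binding. It had 204, 181, 242 and 185 CPM with BRD4780, against 279.5, 311, 296 and 246 CPM with vehicle, and fell by 0.48 on the log2 scale (edgeR adjusted p = 0.0491). So in the same libraries Fkbp5 was higher and Fkbp4 lower. Stip1, which hands client proteins from HSP70 to HSP90, fell by 0.44 on the log2 scale (edgeR adjusted p = 0.0448). Hsd11b1, the enzyme that regenerates active glucocorticoid, averaged 45.4 ± 9.3 CPM with BRD4780 and 80.2 ± 4.7 CPM with vehicle (SD, n = 4 per group; edgeR adjusted p = 0.0175).

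The glucocorticoid receptor gene, Nr3c1, had 45.9, 51.0, 71.8 and 43.3 CPM with BRD4780, against 77.2, 75.4, 75.9 and 70.8 CPM with vehicle. BRD4780 replicate 3 alone lay among the vehicle libraries. Its log2 fold change of -0.49 ± 0.14 (SE) did not pass (edgeR adjusted p = 0.0825), and was -0.67 ± 0.08 (SE) and past the threshold without BRD4780 replicate 3 (edgeR adjusted p = 0.000598). Nr3c2, the mineralocorticoid receptor gene, was at -0.18 ± 0.22 (SE) and Hsd11b2, which inactivates the hormone in the collecting duct, at -0.20 ± 0.07 (SE), neither past the threshold. The calls of Fkbp4 and Stip1 were each lost without any 1 of the libraries other than BRD4780 replicate 3, at adjusted p-values up to 0.153 and 0.136, and that of Fkbp4 also with RLE size factors (adjusted p = 0.0503) and that of Stip1 after thinning (adjusted p = 0.0649). The number of the 16 called lower was 1, 0, 8 and 0 without BRD4780 replicates 1, 2, 3 and 4, and 1, 0, 0 and 1 without vehicle replicates 1, 2, 3 and 4. Over all genes, 1537 of 13558 were lower without BRD4780 replicate 3. The call of Hsd11b1 was lost without BRD4780 replicates 2 or 4 or vehicle replicates 2 or 3 (adjusted p up to 0.0678).

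Few relatives and partners of the 10 genes were called, as were few of all genes (2.92% in either direction). In lists this short, here and in the next paragraphs, a count of 0 lies near that share and says nothing about the genes. In the family of FK506-binding proteins, 1 of 12 others was higher and 0 lower by edgeR, against 2.3% and 0.623% of all genes (4 higher and 0 lower at an unadjusted p under 0.05, and 3 and 0 by DESeq2). It was Fkbp7, an ER prolyl isomerase gene, at 4.47, 6.47, 4.47 and 4.69 CPM with BRD4780 against 2.58, 2.10, 1.71 and 2.07 CPM with vehicle (edgeR adjusted p = 0.0175). Its call was lost without BRD4780 replicate 2 or vehicle replicates 2 or 3 (adjusted p up to 0.0712) and after thinning (adjusted p = 0.0921). Fkbp10 and Fkbp14 were at 0.89 ± 0.25 and 0.76 ± 0.23 (log2 fold change, SE) and did not pass. In the C/EBP family 1 of 5 others tested was higher and 0 lower, against the same shares of all genes (2 higher and 1 lower at an unadjusted p under 0.05 and by DESeq2). It was Cebpb, the relative of Cebpd that serves gluconeogenesis and the stress response. It had 15.1, 13.0, 7.02 and 15.4 CPM with BRD4780, against 5.20, 6.26, 5.48 and 5.22 CPM with vehicle (log2 fold change 1.17 ± 0.23 SE, edgeR adjusted p = 0.0315). The call was lost without any 1 of the libraries other than BRD4780 replicate 3 (adjusted p up to 0.103). Cebpa was at -0.67 ± 0.20 and Ddit3 at 0.84 ± 0.24 (log2 fold change, SE), neither past the threshold. Without BRD4780 replicate 3, 4 of the FK506-binding protein genes were higher and 0 lower, and 2 of the C/EBP genes were higher and 1 lower. Over all 13558 genes tested in that fit, 1647 were higher and 1537 lower.

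Around Nfkbia, 0 of 13 tested subunits, other inhibitors and kinases of NF-kB passed edgeR's test, against 2.92% of all genes (2 higher and 1 lower at an unadjusted p under 0.05, 0 by DESeq2). Of 14 inflammatory genes that NF-kB induces and glucocorticoid is known to repress, 8 had enough reads for the test and 0 passed (1 higher and 1 lower at an unadjusted p under 0.05, and 1 higher by DESeq2). The median log2 fold change of those 8 was -0.14. Icam1, an adhesion molecule gene, averaged 19.8 ± 2.1 CPM with BRD4780 and 15.0 ± 1.6 CPM with vehicle (SD, n = 4 per group), and the cytokine gene Il1b averaged 0.624 ± 0.405 CPM with BRD4780 and 1.32 ± 0.37 CPM with vehicle (SD, n = 4 per group). Around Errfi1, 0 of 8 tested EGF receptors and ligands passed (0 higher and 1 lower at an unadjusted p under 0.05, and 1 lower by DESeq2). That gene was Erbb2, at -0.37 ± 0.10 (log2 fold change, SE). Around Mertk, 0 of 4 passed (1 higher and 1 lower at an unadjusted p under 0.05 and by DESeq2), with the related receptor gene Axl at 0.50 ± 0.14 and the ligand gene Gas6 at -0.27 ± 0.09 (log2 fold change, SE). Without BRD4780 replicate 3, edgeR called 2 higher and 1 lower around NF-kB, 1 higher and 0 lower of the inflammatory genes, 0 higher and 1 lower around Errfi1, and 2 higher and 1 lower around Mertk. That fit called 1647 higher and 1537 lower of all 13558 genes, so nothing is read from these counts.

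Around Ddit4, 0 of 11 genes of mTORC1 and its brakes passed, against 2.92% of all genes (2 higher and 0 lower at an unadjusted p under 0.05, and 1 higher by DESeq2). Tsc1 was at 0.51 ± 0.15 (log2 fold change, SE). Of the other TSC22 genes 0 of 3 passed (2 higher and 0 lower at an unadjusted p under 0.05, and 1 higher by DESeq2), Tsc22d1 being at 0.44 ± 0.12 (log2 fold change, SE). Of relatives and corepressors of Bcl6 and Zbtb16, 0 of 8 passed (0 higher and 1 lower at an unadjusted p under 0.05, 0 by DESeq2). Beside Bcl6 stand targets of growth hormone, listed together with the genes of its receptor and of STAT5. Of the 7 tested, 0 were higher and 1 lower by edgeR, against 2.3% and 0.623% of all genes (0 higher and 3 lower at an unadjusted p under 0.05, and 2 lower by DESeq2). This was Cish, a feedback inhibitor of cytokine signalling, at 19.99, 22.9, 14.8 and 7.70 CPM with BRD4780 against 88.4, 57.3, 91.7 and 49.5 CPM with vehicle. The groups were far apart (edgeR adjusted p = 0.0107), while those of Bcl6 in the same mice covered each other. Igf1 was at -0.87 ± 0.24 and Socs2 at -0.55 ± 0.21 (log2 fold change, SE), neither past the threshold. Without BRD4780 replicate 3, edgeR called 1 higher and 0 lower around mTORC1, 2 higher and 0 lower of the TSC22 genes, 0 higher and 1 lower of the relatives and corepressors, and 1 higher and 2 lower of the growth hormone genes. The same fit called 1647 higher and 1537 lower of all 13558 genes. Without BRD4780 replicate 4 the growth hormone genes had 0 higher and 2 lower, where 83 of all 13666 genes were called in either direction.

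Likeness to Fkbp5 was measured as the root mean square difference of log2 CPM, each gene centred on its own mean over the 8 libraries, among 13473 other genes tested, whose median was 0.70. The nearest were Prkag3, a regulatory subunit gene of AMP-activated kinase (0.17), Ttpa, the gene of the alpha-tocopherol transfer protein (0.17), Klhl6, a ubiquitin ligase adaptor gene (0.17), Sema7a, a semaphorin gene (0.19), and Amigo3, an adhesion protein gene (0.21). Prkag3 averaged 24.0 ± 5.6 CPM with BRD4780 and 10.8 ± 1.4 CPM with vehicle (SD, n = 4 per group), and Klhl6 averaged 14.8 ± 1.5 CPM with BRD4780 and 6.80 ± 0.12 CPM with vehicle (SD, n = 4 per group). Centring over both groups keeps the difference between BRD4780 and vehicle in this measure. The 10 genes were selected on that difference, so their places are a description and support nothing. Among the 10 genes, Tsc22d3 was nearest, at 0.23 and rank 7 of all genes, then Rgcc at 0.30 and rank 62, Cebpd at 0.33 and rank 129 and Nfkbia at 0.37 and rank 215. Mertk and Errfi1 followed at 0.42 and 0.43. Ddit4, Zbtb16 and Bcl6 stood at 0.62, 0.64 and 0.66, close to the median of all genes.

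The groups were also apart in podocyte and endothelial marker sums, and overlapped in those of the thick ascending limb, adipocytes, lymphocytes and adrenal tissue. Summed podocyte markers ranged from 288 to 388 CPM with BRD4780 and from 139 to 225 CPM with vehicle, with 3 of 8 called higher, against 2.3% of all genes. Summed endothelial markers ranged from 249 to 311 CPM with BRD4780 and from 121 to 223 CPM with vehicle, with 2 of 8 called higher, against the same share. Thick ascending limb markers had 3 of 6 lower, against 0.623% of all genes, with summed levels of 1881 to 3107 CPM with BRD4780 and 2890 to 3913 CPM with vehicle. Adipocyte markers ranged from 52.2 to 161 CPM with BRD4780 and from 81.7 to 240.0 CPM with vehicle. Most of that sum was Fabp4, which endothelial cells also express, at 78.5 ± 35.8 CPM with BRD4780 and 104 ± 44.8 CPM with vehicle (SD, n = 4 per group). Adipoq, the gene of the fat cell hormone adiponectin, averaged 1.54 ± 2.34 CPM with BRD4780 and 7.32 ± 6.6 CPM with vehicle (SD, n = 4 per group), and the fold changes of Adipoq, Plin1, Cidec and Cfd lay between 0.222 and 0.302, none past the threshold. Lymphocyte markers summed to 4.90 to 13.1 CPM with BRD4780 and 6.15 to 12.4 CPM with vehicle. The marker calls were not repeated without BRD4780 replicate 3 or 4. The part of these cell types in the levels of the 10 genes was not tested. Adrenal tissue, which lies against the kidney and makes the hormone, left little trace. Of its 8 markers Cyp11b1 and Cyp11b2, the last enzymes of steroid synthesis, had no read in any library, and the sum of 5.18 to 6.37 CPM with BRD4780 and 4.16 to 5.48 CPM with vehicle was nearly all Star, a gene that other tissues also express.

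**Figure D5:**
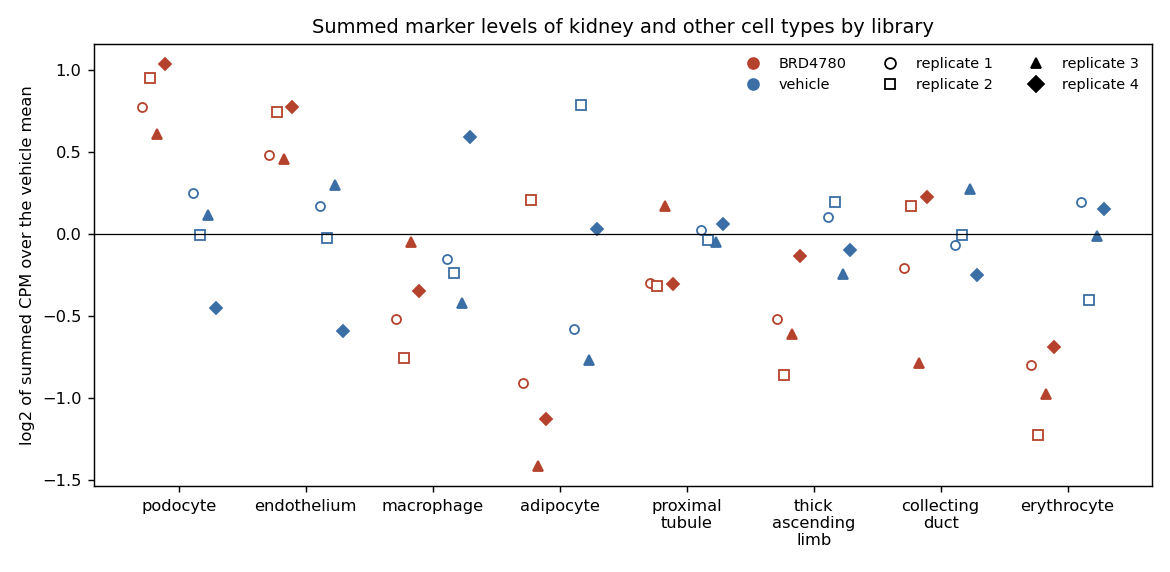
Log2 of the summed CPM of each marker list in each library over its mean in the vehicle libraries, with BRD4780 (red) left of vehicle (blue) within each list. Symbols give the replicate. Podocyte and endothelial sums lie higher in every BRD4780 library than in any vehicle library, and erythrocyte sums lower, while the other lists overlap. The erythrocyte sum holds only 2 of 4 listed genes. It is mostly Slc4a1, at a mean of 28.5 CPM with BRD4780 and 42.9 CPM with vehicle. In Alas2, its other gene, the groups overlapped.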

How the data were processed

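The authors deposited 1 table of RSEM expected counts per gene, not normalized, with a column per mouse. STAR 2.5.2b, RSEM 1.3.0 and Picard are named in the submitters' processing notes, with the builds mm10 and hg19 in no stated role. No source used here gives the annotation, filters or strand setting. Of each symbol on more than 1 line (343 symbols) the first line was kept, which left 21759 genes. A further 1 column of per-sample values matching no sample was not used. Expected counts were rounded. Genes were kept with filterByExpr (minimum count 10), which left 13474, and scaled by TMM. edgeR 4.0.16 in R 4.3.3 ran the quasi-likelihood F-test, BRD4780 over vehicle, with Benjamini-Hochberg adjustment over all genes tested and a threshold of 0.05. SEs were derived from the fold change and its F statistic (log2 fold change over root F). DESeq2 1.42.0 was an alternative, with RLE size factors, other filters, thinning to the smallest total and each library left out in turn.

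Log2 CPM used a prior count of 2. A count of 0 allows up to 3 counts, 0.523 CPM in the shallowest library and 0.105 CPM in the deepest, for counting error only. No libraries were alike within sampling noise (lowest chi-square per degree of freedom 7.98). On simulated data with 13333 genes tested for this comparison, the share called by edgeR was 42% at a true 1.5-fold change, 86% at 2-fold and 98% at 4-fold, and 6 of 169 calls were false. The changed genes all had a mean above 2 CPM, and libraries varied independently around common means. Departures of a whole library, such as BRD4780 replicate 3, are not in the simulation, so its shares may not hold here. Coordinates are from GENCODE M21 (GRCm38, that is mm10). Of 22116 Ensembl identifiers 21790 were found there.

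Replicates are taken as separate mice, as the design text implies, and p-values measure only the spread between these samples. Replicate numbers follow the order of deposition. Of the sample titles, 2 in each group share a number with a title of the other group, whose meaning is not given, so it was used as a block only in an alternative chosen after seeing the data. The members and lists were chosen with earlier results of these data known, and Hif3a, Map3k6 and Cdkn1c were kept out of the list of other induced genes for that reason. Named genes are the 10 members, the 3 genes with the smallest p of each list, the receptor and 11-beta enzyme genes, Cish, and the 5 genes most like Fkbp5. The text names the informative ones of these, and genes outside the rule (Per1, Arrdc2, and list genes named as not passing) were chosen after their values were seen.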

Additional observations from a re-analysis of the deposited data

Results flagged for a closer look

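Of 112 groups of 4 libraries among the named genes, 6 held a library whose distance from the nearest other library took most of the group's range, past Dixon's 95% critical value. Chance gives about 1 in 20 such groups, which is near the number seen. Among the 10 genes this was Ddit4 alone, at 139 CPM in BRD4780 replicate 4, where the next library of the group was at 34.8 CPM. In the same library Igf1 was at 8.37 CPM and Nr3c2 at 5.52 CPM, each above the other 3 treated libraries. Fkbp7 was at 6.47 CPM in BRD4780 replicate 2, where the next library of the group was at 4.69 CPM. Gas6 was at 288 CPM in BRD4780 replicate 3, where the next library of the group was at 237 CPM. Sema7a was at 2.73 CPM in vehicle replicate 2, where the next library of the group was at 3.84 CPM.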

How the results depend on the processing

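DESeq2 called 850 genes higher and 505 lower, against 310 and 84 by edgeR, and 10 higher and 1 lower of the other glucocorticoid-induced genes, against 5 and 0. Leaving out each library in turn gave 26 to 1647 genes higher, 5 to 1537 lower, 1 to 14 of the other glucocorticoid-induced genes higher and 0 to 1 lower. It gave 1 to 9 of the 10 members past the threshold, and a median log2 fold change of the members of 0.67 to 1.04. The lowest counts over all genes came without vehicle replicate 2 and the highest without BRD4780 replicate 3, and the cause was not tested. The log2 fold change of each of the 10 genes was positive in all 13 alternatives and under a replicate block, a direction that the choice of genes favours. That of Ddit4 was 0.62 without BRD4780 replicate 4 and 0.46 under the block, and that of Cebpd 0.41 after thinning. RLE size factors, no filter on low counts, a mean of at least 1 CPM and thinning kept all counts over all genes within 1.5 times. The depth of BRD4780 replicate 4 (5.74 M) limits the precision of the values in it, most of all that of Cebpd, the gene counted least. With the number that 2 pairs of titles share as a replicate block, chosen after seeing the data, the estimate rests on those 4 libraries. It gave 57 genes higher and 90 lower, 3 members past the threshold, 4 of the other glucocorticoid-induced genes higher and a median of 0.72, and turned Tsc22d4 to 0.11 and Hbegf to -0.079 on the log2 scale, neither past the threshold in either fit. Libraries of a pair did not deviate together from their group means (r = -0.01 and -0.30 across 13474 genes).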
